A study of Homo sapiens with 6 samples.

Results

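A cassette exon is an exon that some transcripts of a gene hold and others leave out by joining its flanking splice sites directly. The exons described here are 61 to 250 bases long and of a length that is not a multiple of 3, so that leaving them out or taking them in shifts the reading frame. They were read from the deposited long-read isoform models as internal exons for which another isoform of the same gene joins the same flanking splice sites. Where an exon had several flank pairs, the pair with the most reads was used. Inclusion is the number of reads of isoforms with the exon as a percent of those reads plus the reads of isoforms that skip it, and 10 or more such reads were required in each of 6 libraries. This gave 3517 exons in 1820 genes, of 7541 cassette exons of any length with the same minimum and 12126 cassette exons built in all. At the edge of that minimum, 98 of the 3517 exons had exactly 10 reads in their shallowest library, and 105 exons with 9 reads there were left out.

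The tested cells were HBEC3kt bronchial epithelial cells, an immortalised human line, with the genotype U2AF1 S34F. They were set against wild-type (WT) HBEC3kt cells, with 3 libraries of each genotype. No treatment was named for either genotype. S34F replicates 2 and 3 came from the same labelled isolate and replicate 1 from another, and the WT replicates were arranged the same way, so a p-value here measures the spread among these libraries, part of which may be technical. Polyadenylated RNA was copied by the Smart-Seq2 approach and read on a nanopore instrument without molecular identifiers. Assigned reads per library ranged from 451540 to 1014868 in S34F and from 1286512 to 1720292 in WT. The median exon had 66, 50 and 99 informative reads in S34F replicates 1, 2 and 3, against 186, 121 and 161 in WT replicates 1, 2 and 3. All 12 epithelial markers, basal ones such as KRT5 and general ones such as KRT18, had reads in both genotypes. Their summed levels were 8148 to 8772 CPM (counts scaled to library size) in S34F and 7705 to 10020 CPM in WT. Single markers went both ways. KRT5 was at 771 to 1071 CPM in S34F and 265 to 563 CPM in WT, and LAMB3 at 588 to 1076 CPM in S34F and 1933 to 2239 CPM in WT. Of 20 markers of other cells, 3 had reads (CD68, TUBA1A and DNAH5), summing to 217 to 259 CPM in S34F and 108 to 169 CPM in WT. TUBA1A was at 149 to 181 CPM in S34F and 57.5 to 91.8 CPM in WT. CD68 overlapped between the genotypes, and DNAH5 reached at most 2.96 CPM. The part of these marker differences in the results was not tested. The tables count isoforms and do not read the mutated base.

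U2AF1 is the small subunit of the factor that recognises the 3′ end of an intron, where it contacts the AG and the base before it. The S34F substitution lies in a zinc finger of the protein and is recurrent in lung adenocarcinoma and in myeloid disease. A frame-shifting exon matters for the message because either form can carry a stop codon well upstream of the last splice junction, which marks a transcript for nonsense-mediated decay. Exons that bring in such a stop are called poison exons, and many genes of RNA-binding proteins hold them.

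The sequences at the ends of the upstream introns are shown because the base before the AG is the base that U2AF1 contacts. Each line gives the last 20 bases of the intron before a called exon, for all 18 called exons where these could be read, with the base before the AG in capitals. They were copied from GENCODE 29 transcripts (GRCh38) that run through that intron end. HM13, FDPS, RPL10, PPIA and SAP30BP are outside the naming rule and were shown after their values were seen.
RBM39: ccatctatctctctttgTag
MOK: tctcttctccttccccgTag
HM13: cagcctgtgtcctctcaTag
FDPS: cttgtttttcttctactTag
RPL10: cttgcactaccccaatgTag
MRPL52: accctattgttgctctcTag
PPIA: attttttaccccactacTag
ITPA: gtgtctgtttccctgatAag
ILK: ccattgccccttcctcaAag
SAT1: taatttgtcccaatcttCag
IP6K2: tagttgtgttttatgttCag
RPS9: tgtccctatctcctatgCag
ERP29: tcagctctatacgccctCag
SAP30BP: ctctcccttccaaacccCag
SNHG32: aatttttagtttttttaCag
LGALS1: gcccacccgttacccccCag
ANXA2: tgtttatcttttaacctCag
AGTRAP: atctcttttaatctgttGag

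Among these, RBM39, MOK, HM13, FDPS, RPL10, MRPL52 and PPIA have T before the AG and ITPA and ILK have A. SAT1, IP6K2, RPS9, ERP29, SAP30BP, SNHG32, LGALS1 and the ANXA2 exon of 100 bases have C, and AGTRAP has G.

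Whole exons are shown for 4 genes in which inclusion brings in a stop, with the first stop in the frame of the upstream coding exon in capitals. They lie at chrX:23802411-23802520 on the plus strand (SAT1), chr20:34328447-34328519 on the minus strand (RBM39), chr3:48732127-48732257 on the minus strand (IP6K2) and chr19:54710421-54710592 on the plus strand (RPS9), in the hg19 coordinates of the files. The letters come from GENCODE 29 transcripts with an exon and flanking introns of the same lengths.
SAT1: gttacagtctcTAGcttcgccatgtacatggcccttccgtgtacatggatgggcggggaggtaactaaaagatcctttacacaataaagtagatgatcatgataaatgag
RBM39: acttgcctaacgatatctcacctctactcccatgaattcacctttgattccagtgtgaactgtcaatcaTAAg
IP6K2: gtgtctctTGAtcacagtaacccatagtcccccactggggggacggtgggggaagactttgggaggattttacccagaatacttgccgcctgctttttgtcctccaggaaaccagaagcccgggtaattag
RPS9: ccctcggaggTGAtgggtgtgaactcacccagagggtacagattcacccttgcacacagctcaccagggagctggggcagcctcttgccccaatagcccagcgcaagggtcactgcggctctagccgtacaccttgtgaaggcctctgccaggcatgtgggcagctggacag

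For 5 coding exons, the junction made by skipping is shown from in-frame codons of the upstream exon to the first stop after it, which is in capitals. The skipped exons lie in hg19 at chr20:3193965-3194029 (ITPA, plus strand), chr11:6629276-6629441 (ILK, plus strand), chr12:112457560-112457698 (ERP29, plus strand), chr14:102698044-102698158 (MOK, minus strand) and chr1:43830857-43831047 (ELOVL1, minus strand).
ITPA: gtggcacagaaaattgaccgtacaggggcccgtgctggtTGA
ILK: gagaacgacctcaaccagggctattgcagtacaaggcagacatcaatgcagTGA
ERP29: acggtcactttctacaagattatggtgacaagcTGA
MOK: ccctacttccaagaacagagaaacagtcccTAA
ELOVL1: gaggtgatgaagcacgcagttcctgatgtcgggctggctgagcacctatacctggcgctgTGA

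The first question was which of these exons differed in inclusion between S34F and WT cells. By edgeR's quasi-likelihood test over all 7541 cassette exons, with Benjamini-Hochberg adjustment and an adjusted p of 0.05, inclusion of 35 exons in 34 genes differed. It was lower in S34F for 28 exons and higher for 7. Of all cassette exons fitted, 0.888% were called, 0.756% lower and 0.133% higher in S34F, and among the 3517 exons 0.995% were called, 0.796% lower and 0.199% higher. The share called was thus near the background share. Among the 2627 frame-keeping exons of the same lengths, 16 were called lower and 0 higher by edgeR, with 83 higher at an unadjusted p under 0.05; the difference between the classes was not tested. The count of lower calls was 14 without S34F replicate 1, 6 without S34F replicate 3, 18 without WT replicate 1, 12 without WT replicate 2 and 6 without WT replicate 3. The count of higher calls was 4 without S34F replicate 1 and 2 without S34F replicate 3, WT replicate 2 or WT replicate 3. The exons in SAT1, RBM39, AGTRAP and ITPA were called in each of the 6 fits that left out a library. All 35 exons kept their direction in those fits and in the 12 others run, and within B1 and within B2. Of the 35 exons, 34 had libraries of the genotypes that did not overlap. For these, the direction within B1, within B2 or without a library was fixed by that in advance and adds no support. Over all 3517 exons, 8.45% were lower without overlap and 7.68% higher, beside 8.23% and 6.98% of all cassette exons fitted, and 55.2% had the same direction in B1 and B2.

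**Figure D1:**
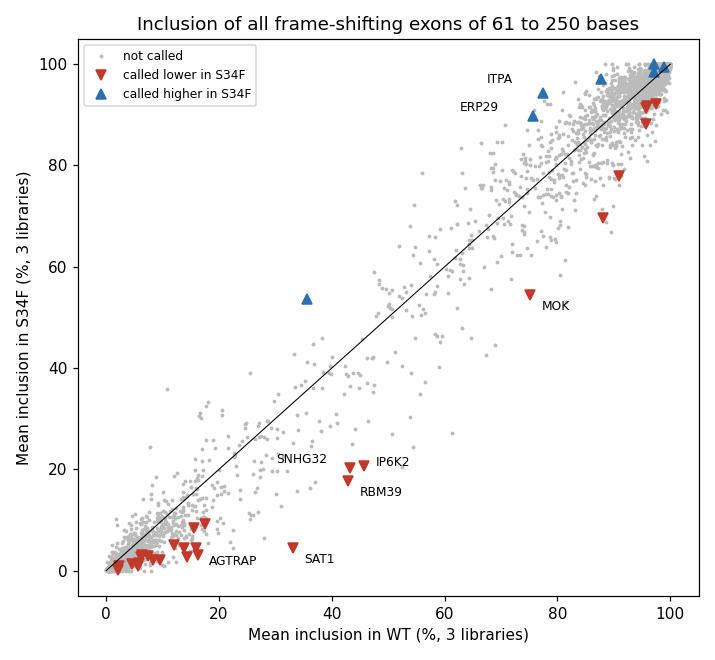
Mean inclusion in S34F (vertical axis, %) against mean inclusion in WT (horizontal axis, %) for the 3517 frame-shifting exons, 3 libraries each, with the 28 exons called lower and the 7 called higher in S34F as triangles. SAT1 stands farthest below the line of equal inclusion among the called exons, at 4.53% in S34F and 33.1% in WT.

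Among exons whose inclusion brings in an early stop, those in SAT1, RBM39, IP6K2, RPS9 and NMRAL1 were lower in S34F. The SAT1 exon of 110 bases had the smallest adjusted p of all 3517 exons. SAT1 encodes the acetyltransferase that starts polyamine breakdown, and its extra exon is known as a poison exon. The stop begins 11 bases into the exon shown above. Inclusion was 3.62%, 5.11% and 4.87% in S34F replicates 1, 2 and 3, with 552 to 1192 informative reads, against 25.7%, 37.8% and 35.6% in WT replicates 1, 2 and 3, with 1924 to 3150 reads. All S34F libraries were low and the genotypes did not overlap. The 95% Wilson intervals, which cover counting error only, reached at most 7.02% in S34F and began at 23.8% in WT. The log2 odds ratio of inclusion was -3.36 ± 0.25 (SE; edgeR adjusted p = 2.84e-36). The whole SAT1 gene averaged 1687 ± 519 CPM in S34F and 2467 ± 1317 CPM in WT (SD, n = 3 each), a log2 fold change of -0.45 (edgeR adjusted p = 0.577).

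RBM39, a splicing factor related to the large U2AF subunit, held a 73-base exon whose stop lies near its 3′ end. Inclusion was 18.2%, 17.2% and 17.6% in S34F replicates 1, 2 and 3, against 38%, 50% and 40.8% in WT replicates 1, 2 and 3, from 55 to 142 reads per library. The S34F libraries lay close together and below every WT library. The log2 odds ratio was -1.80 ± 0.37 (SE; edgeR adjusted p = 0.000501). GENCODE labels the transcripts with this exon as targets of nonsense-mediated decay.

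IP6K2, an inositol hexakisphosphate kinase, held a 131-base exon that brings in a stop 8 bases from its start. Inclusion was 10.5%, 26.9% and 24.4% in S34F replicates 1, 2 and 3, against 44.8%, 44.0% and 48.3% in WT replicates 1, 2 and 3. The groups did not overlap, but the counts were small, at 26 to 89 reads per library. The log2 odds ratio was -1.84 ± 0.45 (SE; edgeR adjusted p = 0.0087), and among the fits that left out a library the exon was called only in the one without S34F replicate 2. In RPS9, a protein of the small ribosomal subunit, the 172-base exon had an inclusion of 2.20%, 3.24% and 2.5% in S34F, against 3.93%, 8.03% and 6.32% in WT (edgeR adjusted p = 0.0041). RPS9 was low in all S34F libraries, from 371 to 1859 reads per library, and its transcripts with the exon carry the label of nonsense-mediated decay. RPS9 was not called without S34F replicate 1, S34F replicate 3, WT replicate 2 or WT replicate 3. NMRAL1, an NADPH-sensing redox protein, averaged 4.53 ± 0.84% in S34F and 16.0 ± 2.6% in WT for its 136-base exon (SD, n = 3 each), without overlap (edgeR adjusted p = 0.0316). NMRAL1 was called in none of the 6 fits that left out a library.

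Across the exons, the effect of each form on the frame could be worked out in a GENCODE coding transcript for 2514 of the 3517. A stop more than 50 bases upstream of the last junction was counted as early. Inclusion brought in an early stop for 327 exons, in 269 of which it lay within the exon. Of the 327, 11 (3.36%) were called lower and 0 higher in S34F by edgeR (45 lower and 3 higher at an unadjusted p under 0.05). Of all cassette exons fitted, 0.756% were called lower and 0.133% higher. Among the 11, the PPIA and MRPL52 exons also lie in the 5′ UTR of coding transcripts, where inclusion need not bring in the computed stop. Skipping gave an early stop for 1351 exons, of which 3 were called lower and 3 higher, or 0.222% each. Skipping gave a later stop for 772 exons, of which 4 were called lower and 2 higher, or 0.518% and 0.259%. The median inclusion difference, S34F minus WT, was -0.65 percentage points for the 327 exons and 0.27 points for the 1351, beside 0.03 points for all 3517 and 0.02 points for all cassette exons. With the labels of GENCODE in place of the computed frame, 86 exons had decay-labelled transcripts with the exon and coding ones without it. Of these 86, 4 (4.65%) were called lower, and their median difference was -0.77 points over all 86. The opposite arrangement held for 108 exons, of which edgeR called 0 and 13 passed an unadjusted p under 0.05, with a median difference of 0.49 points.

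The frame classes went together with how often an exon is used. Of the 327 exons with a stop on inclusion, 230 were included in at most 10% of reads. There 70.4% of them were lower in S34F, with a median difference of -0.51 points. Of the other 397 exons of that range 70.8% were lower, with a median difference of -0.63 points. Of the 230 exons 5 were called lower, and all 627 exons of that range held 14 lower calls. Between 10 and 50% inclusion, 64.3% of the 84 with a stop on inclusion were lower in S34F, with a median difference of -3.75 points and 6 called lower, beside 69.5% of the other 197, with a median difference of -2.52 points. The 281 exons of that range held 7 lower calls in all, and the difference between these classes was not tested. Above 90% inclusion, 61% of all 2082 exons were higher in S34F. The form that is rarer overall therefore had a lower share in S34F at both ends of the scale. The S34F libraries were also the shallower ones, as given above. With every library thinned to the reads of the shallowest, 65.5% of exons at up to 10% inclusion were lower in S34F and 56.4% of those above 90% were higher. At equal depth these ranges held 537 and 1793 exons with the read minimum, where they held 627 and 2082 as deposited, and the part of depth in this pattern was not tested. The isoform models cover the whole series and were not remade at equal depth, so thinning changed the counts only. The part of that isoform set in the pattern was not tested either. Of the 28 exons called lower, 14 were included in at most 10% of reads on average and 4 in more than 90%.

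**Figure D2:**
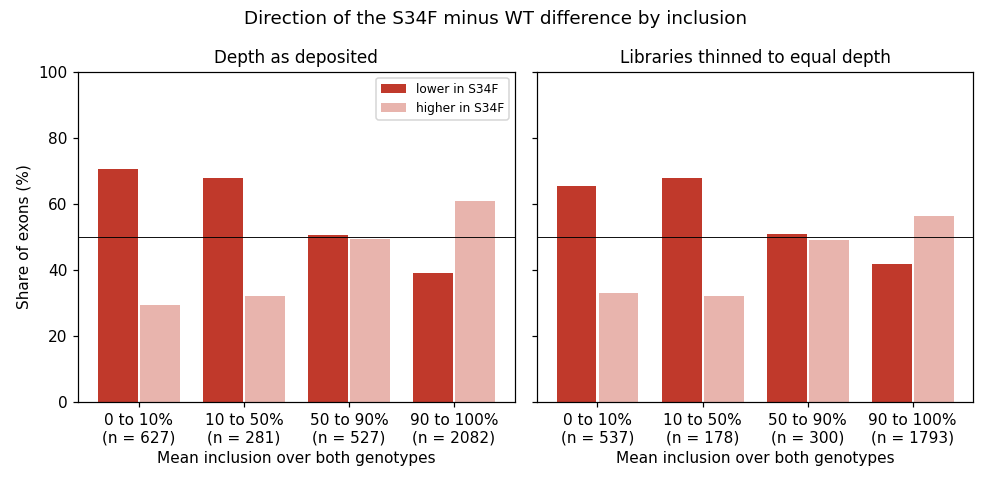
Share of frame-shifting exons (vertical axis, %) that were lower or higher in S34F than in WT, by mean inclusion over both genotypes (horizontal axis), with libraries as deposited (left) and thinned to equal depth (right). Lower exons prevail below 50% inclusion and higher ones above 90% in both panels; exons without a difference are in neither bar.

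Coding exons formed the next group. In MOK, a kinase of the mitogen-activated family, inclusion of the 115-base exon was 58.7%, 52.1% and 52.7% in S34F replicates 1, 2 and 3, against 76.2%, 76.1% and 73.3% in WT replicates 1, 2 and 3. The 3 S34F libraries were all below the 3 WT libraries, with 71 to 525 reads each, and the log2 odds ratio was -1.32 ± 0.27 (SE; edgeR adjusted p = 0.00056). Skipping this exon leads to a stop 10 bases past the junction, as the sequence above shows. MOK was not called without S34F replicate 3 or without WT replicate 3. In ELOVL1, a fatty acid elongase, inclusion of the 191-base exon was 71.9%, 79.7% and 82.2% in S34F, against 90.8%, 90% and 91.9% in WT. ELOVL1 was lower in every S34F library (log2 odds ratio -1.49 ± 0.32, SE; edgeR adjusted p = 0.00113) and was not called without S34F replicate 1, S34F replicate 3 or WT replicate 3. In AGTRAP, whose product binds an angiotensin receptor, inclusion of the 97-base exon was 3.65%, 2.52% and 2.92% in S34F, against 13.1%, 15.2% and 20.3% in WT. AGTRAP is the called exon shown with G before the AG (log2 odds ratio -2.53 ± 0.42, SE; edgeR adjusted p = 2.21e-06), and its intervals reached 7.33% in S34F and began at 10.1% in WT.

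Among the exons that were higher in S34F, ITPA had the smallest adjusted p. ITPA hydrolyses inosine triphosphate, and skipping its 65-base exon leads to a stop 20 bases past the junction. Inclusion was 95.8%, 94.8% and 92.3% in S34F replicates 1, 2 and 3, against 78.8%, 75.5% and 78.2% in WT replicates 1, 2 and 3, from 95 to 283 reads. No S34F library came near the WT libraries, and the intervals stayed apart, beginning at 87.6% in S34F and ending at 83.4% in WT. The log2 odds ratio was 2.16 ± 0.39 (SE; edgeR adjusted p = 2.29e-05). ERP29, a chaperone of the endoplasmic reticulum, had an inclusion of 89.1%, 90.1% and 90.1% for its 139-base exon in S34F, against 80.4%, 71.5% and 75.1% in WT (edgeR adjusted p = 0.0013). The S34F libraries of ERP29 lay within 1 percentage point of each other and above every WT library. ILK, the integrin-linked kinase, had an inclusion of 96.8%, 98.9% and 95.7% for its 166-base exon in S34F, against 92.5%, 84.2% and 86.4% in WT (edgeR adjusted p = 0.00584). ERP29 was not called without S34F replicate 3, WT replicate 2 or WT replicate 3, and ILK was not called without these or S34F replicate 2.

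The other 4 higher calls were closer to full inclusion or share their reads. LGALS1, the secreted lectin galectin, averaged 99.5 ± 0.29% for its 172-base exon in S34F and 98.9 ± 0.23% in WT (SD, n = 3 each), a difference of 0.66 points that was called at 2354 to 8237 reads per library (edgeR adjusted p = 0.000501) but not without S34F replicate 1 or WT replicate 1. In ANXA2, an annexin, exons of 83 and 100 bases end at the same site and were counted against shared skipping isoforms, so they are not independent. Inclusion was 58.1%, 54.4% and 48.6% for the ANXA2 exon of 83 bases in S34F, against 46.1%, 33.4% and 27.2% in WT, and the exon of 100 bases averaged 98.5% in S34F and 97% in WT. Both used the same skipping reads, 180 in S34F and 895 in WT. Reads with the exon numbered 207 in S34F and 523 in WT for 83 bases, against 12072 and 30639 for 100 bases. The inclusion of the shorter exon leaves out reads of the longer one. It is therefore not a share of all reads there and does not show more use of that exon. Of the 3517 exons, 503 in 198 genes shared both flanks with another such exon and carry the same limit. Of these 503, 8 were called lower and 3 higher, the ANXA2 pair included. These shares were 1.59% and 0.596%, beside 0.756% and 0.133% of all cassette exons fitted. Calls of exons that share both flanks are not independent. Neither ANXA2 exon was called without S34F replicate 3, WT replicate 2 or WT replicate 3, and the one of 83 bases was not called without S34F replicate 1. In SAA1, an acute-phase protein, all 266 informative reads of the 95-base exon in S34F held it, which allows a skipping share of up to 1.13%, against 58 skipping reads of 2052 in WT. SAA1 has a near-identical neighbour gene, so its assignment of reads is uncertain, and it was called in none of the fits without a library.

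**Figure D3:**
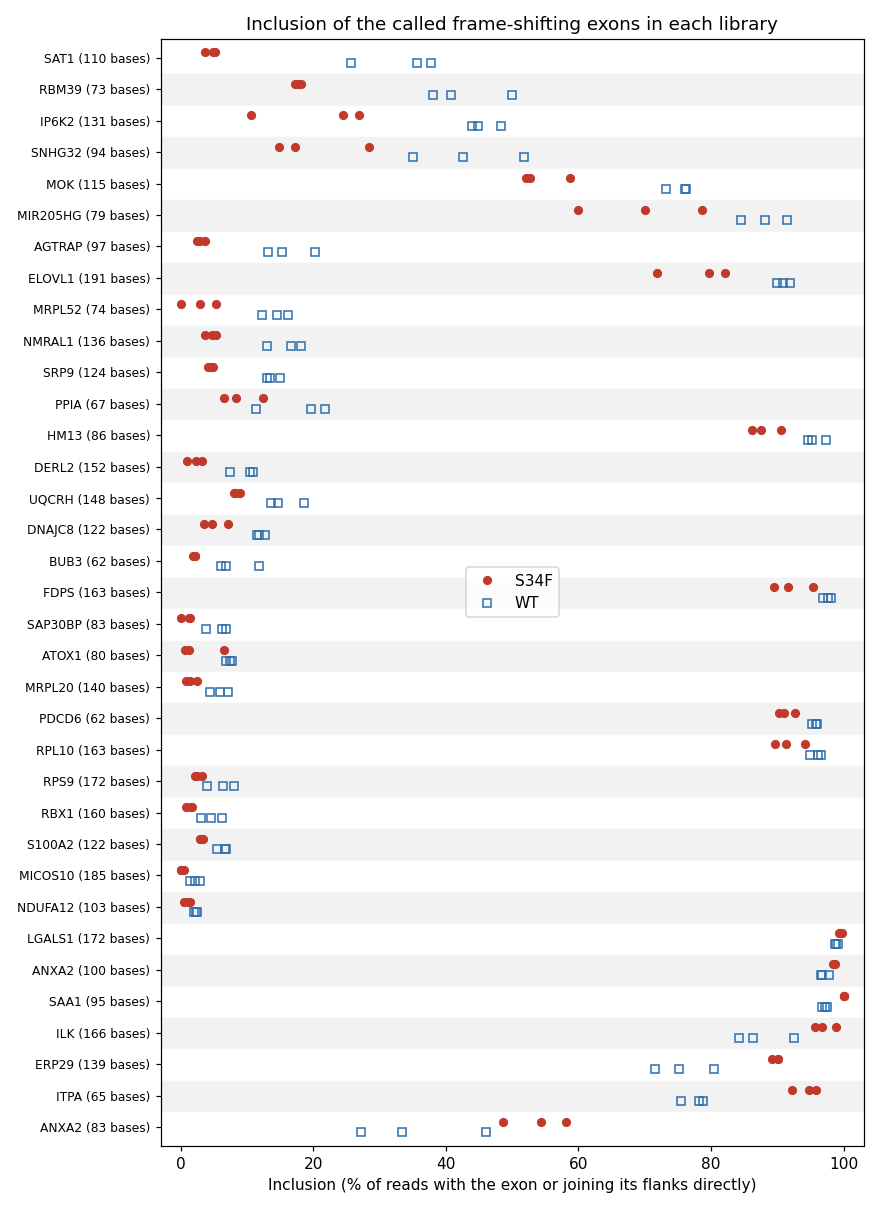
Inclusion (horizontal axis, %) of the 35 called frame-shifting exons in each library, with S34F libraries as filled circles above WT libraries as open squares; rows are ordered by the inclusion difference. The genotypes do not overlap in 34 of the 35 rows, PPIA being the exception.

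Among the rest were exons of host genes of small RNAs, exons without a match in GENCODE and exons of UTRs. SNHG32, a host gene of small nucleolar RNAs, had an inclusion of 14.8%, 17.2% and 28.5% for its 94-base exon in S34F, against 35.1%, 42.6% and 51.8% in WT (edgeR adjusted p = 0.000501). MIR205HG, the host gene of a microRNA, had 78.7%, 60% and 70% for its 79-base exon in S34F, against 91.5%, 88.1% and 84.6% in WT (edgeR adjusted p = 0.00313). Both were lower in all S34F libraries. GENCODE types the SNHG32 transcripts with and without this exon as lincRNA, and the MIR205HG exon matched no GENCODE exon. SNHG32 was not called without S34F replicate 3 or WT replicate 3, and MIR205HG was not called without S34F replicate 2 or WT replicate 1. In BUB3, a spindle checkpoint protein, a 62-base exon that matched no exon of GENCODE had an inclusion of 2.18%, 1.79% and 2.14% in S34F, against 6.84%, 6.13% and 11.8% in WT (edgeR adjusted p = 8.86e-06). BUB3 was not called without S34F replicate 3 or without WT replicate 3. MRPL52, of the mitochondrial ribosome, had an exon of 74 bases in the 5′ UTR of coding transcripts, with an average inclusion of 2.74 ± 2.6% in S34F and 14.3 ± 2.0% in WT (edgeR adjusted p = 0.0242; SD, n = 3 each). MRPL52 was called only in the fit without S34F replicate 2 among those that left out a library. Of the 3517 exons, 582 matched no GENCODE exon with the same flanking introns, and 7 of these were called lower and 1 higher, or 1.20% and 0.172%, beside 0.756% and 0.133% of all cassette exons.

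The other 16 called exons were lower in S34F by 1.32 to 9.38 percentage points, and those named here were chosen after their values were seen. Some are nearly constitutive. In HM13, the signal peptide peptidase, inclusion of the 86-base exon was 87.5%, 90.6% and 86.2% in S34F, against 97.3%, 95.2% and 94.6% in WT (edgeR adjusted p = 0.00505). In FDPS, which makes farnesyl diphosphate, inclusion of the 163-base exon was 89.5%, 91.6% and 95.5% in S34F, against 96.9%, 97.7% and 98.0% in WT (edgeR adjusted p = 0.00322). Every S34F library was below every WT library for both, and FDPS was not called without S34F replicate 1, HM13 not without S34F replicate 1, S34F replicate 3, WT replicate 1 or WT replicate 3. Others are rare. In DERL2, of the pathway that degrades proteins of the endoplasmic reticulum, the 152-base exon had 3.28%, 0.909% and 2.37% in S34F, against 10.4%, 7.38% and 10.9% in WT (edgeR adjusted p = 0.00056), and was not called without S34F replicate 3 or WT replicate 3. In MICOS10, of the mitochondrial inner membrane complex, 2 of 1018 reads held the 185-base exon in S34F, against 53 of 2567 reads in WT (edgeR adjusted p = 0.00153), and the exon was not called without S34F replicate 1. PPIA, the prolyl isomerase cyclophilin A, was the called gene whose genotypes overlapped, with 8.37%, 6.59% and 12.3% for its 67-base exon in S34F, against 11.3%, 19.7% and 21.7% in WT (edgeR adjusted p = 0.0103). It was not called without S34F replicate 2, S34F replicate 3, WT replicate 2 or WT replicate 3.

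The base before the AG could be read for 1108 exons, those whose upstream intron end lies within some GENCODE transcript; these introns are shorter than the rest, with medians of 619 bases, against 1723 bases for exons whose base was not read. The base was C for 761 exons, T for 275, A for 59 and G for 13. Of the exons with T, 7 (2.5%) were called lower and 0 higher by edgeR (38 lower and 7 higher at an unadjusted p under 0.05). Of the exons with A, 0 were called lower and 2 (3.39%) higher (1 and 6 at an unadjusted p under 0.05). Of those with C, 5 were called lower and 3 higher, or 0.657% and 0.394%. Of all cassette exons fitted, 0.756% were called lower and 0.133% higher. Exons whose base was read were called more often than the rest, at 1.6% against 0.71% in either direction. The mean inclusion difference, S34F minus WT, was -1.79 percentage points for T, -0.19 points for C, 1.61 points for A and -4.08 points for G, with every exon weighted alike. The median difference was -0.24 points for T, 0.10 points for C, 0.61 points for A and -2.02 points for G. Of the 13 exons with G, 12 were lower in S34F and 1 was called lower. With reads pooled over exons the mean difference was -1.09 points for T, 0.32 points for C and 3.88 points for A, so the sign for C depends on the weighting.

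Most exons were nearly always included, and the differences were larger among those included in 10 to 90% of reads, a range chosen after seeing the data. There the 69 exons with T averaged 55.8%, 57.4% and 56.4% in S34F replicates 1, 2 and 3, against 63.2%, 62.3% and 62.2% in WT replicates 1, 2 and 3, and 81.2% of them were lower in S34F. The 17 exons with A averaged 61.3%, 63.1% and 60.1% in S34F, against 57.6%, 57.3% and 57% in WT, and 70.6% of them were higher in S34F. The 181 exons with C averaged 61.4%, 63.7% and 62.5% in S34F, against 64.5%, 63.8% and 63.1% in WT. The genotypes did not overlap for T and for A and overlapped for C. With G there were 3 exons in this range, with a mean difference of -7.55 points. The mean difference was -6.07 points in B1 and -5.79 points in B2 for T, 4.75 and 3.07 points for A, and -1.65 and -0.70 points for C. Over cassette exons of all lengths in this range, the mean difference was -5.34 points for the 147 with T, -1.05 points for the 385 with C and 3.13 points for the 39 with A. This wider set includes the frame-shifting exons of the range, 69 with T, 181 with C and 17 with A. The order of T, C and A was the same in the wider set, so it was not shown to be particular to frame-shifting exons. For the base before the AG of the next exon downstream, the mean difference over frame-shifting exons of any inclusion was -0.05 points for T, -0.66 points for C and -0.92 points for A. These are descriptions of the exons that could be read, and the difference between the classes was not tested.

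**Figure D4:**
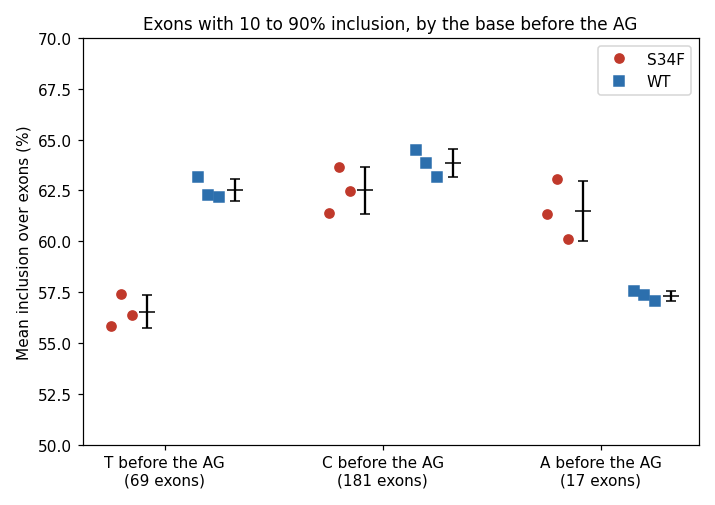
Mean inclusion (vertical axis, %) over exons with 10 to 90% inclusion, by the base before the AG (horizontal axis), with a filled circle per S34F library and a square per WT library; black bars give the mean and SD of the 3 libraries. S34F lies below WT for T and above WT for A.

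Levels of the genes were compared to see whether they moved with the inclusion of the exons. Of 7033 genes tested by edgeR, 3.24% were called, 2.13% lower and 1.11% higher in S34F, and of the 1820 genes with frame-shifting exons 17 were called lower and 18 higher. Leaving out a library moved this count of 35 widely, to 102 without S34F replicate 1 and 133 without S34F replicate 2. It was 10 without S34F replicate 3 and 11, 7 and 6 without WT replicates 1, 2 and 3. Of the 28 genes with an exon called lower, edgeR called 0 at the gene level (6 at an unadjusted p under 0.05), and their log2 fold changes ranged from -0.98 to 0.91. Of the 6 genes with an exon called higher, SAA1 was called, with a log2 fold change of -1.90 (edgeR adjusted p = 0.00165). A sum over a gene mixes both forms of the exon, and fewer reads of a form through decay cannot be told apart from less use of that form in splicing. In a culture read in bulk, fewer cells of a kind and less RNA per cell cannot be told apart either.

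**Figure D5:**
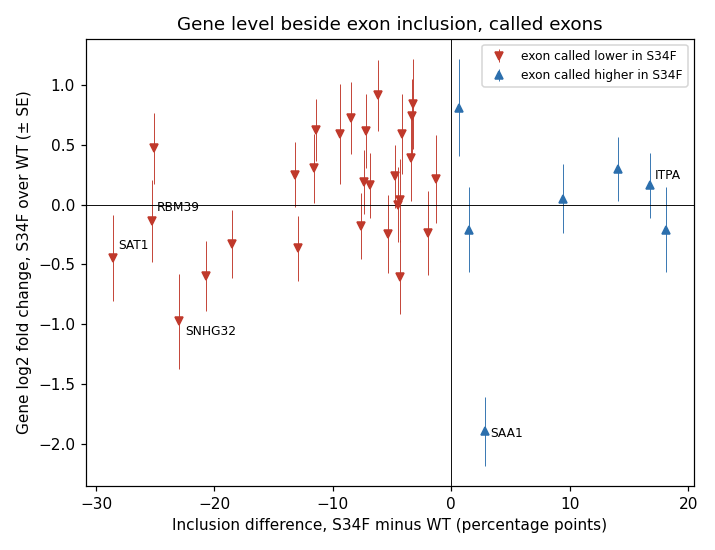
Log2 fold change of the gene, S34F over WT (vertical axis, with its SE), against the inclusion difference, S34F minus WT in percentage points (horizontal axis), for the 35 called exons; the ANXA2 gene appears for both of its exons. SAA1 alone stands far from 0 on the vertical axis.

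Of 23 tested genes for recognition of the 3′ splice site, 1 was called at the gene level, or 4.35%, near the 3.24% of all genes tested. It was U2AF1L4, a paralog of U2AF1, at 11.6 ± 5.5 CPM in S34F and 45.1 ± 10.5 CPM in WT (SD, n = 3 each; log2 fold change -2.02, edgeR adjusted p = 0.00687). U2AF1 itself was at 399 ± 148 CPM in S34F and 458 ± 138 CPM in WT (log2 fold change -0.22, edgeR adjusted p = 0.764). Of 16 tested genes for nonsense-mediated decay, edgeR called 0, and 1 passed an unadjusted p under 0.05: EIF4A3, of the exon junction complex, at 233 ± 61 CPM in S34F and 133 ± 28 CPM in WT (edgeR adjusted p = 0.149). Their median log2 fold change was 0.16, beside 0.02 for all genes tested.

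Splicing factors and RNA-binding proteins of a fixed list held 46 of the exons in 24 genes. Of these, 1 was called, the RBM39 exon, or 2.17%, beside 0.888% of all cassette exons, and the median difference was -1.0 points, beside 0.03 points for all 3517 exons. The 124-base poison exon of SNRPB, a core protein of the spliceosome, averaged 3.31% in S34F and 5.31% in WT without overlap (edgeR adjusted p = 0.446). The 104-base exon of SRSF2, a splicing activator, averaged 1.33% in S34F and 6.82% in WT (edgeR adjusted p = 0.549). U2AF1 has alternative exons of 67 bases, and neither was called. The upstream one was counted only where it is joined to the other, against isoforms with the other alone. The other was counted against isoforms that hold neither. Isoforms with the upstream exon alone entered neither value, so the values do not give the choice between the exons. The upstream one of the minus-strand gene averaged 4.65 ± 0.42% in S34F and 7.25 ± 0.96% in WT without overlap (SD, n = 3 each; edgeR adjusted p = 0.562), and the other 99.4% in S34F and 99.3% in WT.

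Genes of a list of those reported with altered splicing in cells with the mutation held 39 of the exons in 13 genes. That list was chosen with earlier results of these data known, so its share called is not separate evidence. Of these, 2 were called lower, in SAT1 and BUB3, and 0 higher (edgeR; 2 higher at an unadjusted p under 0.05), or 5.13% lower, beside 0.756% lower and 0.133% higher of all cassette exons. Their median difference was 0.15 points, beside 0.03 points for all 3517 exons. In STRAP, which takes part in the assembly of spliceosomal proteins, the 136-base exon had an inclusion of 83.9%, 79.6% and 77.9% in S34F, against 86.7%, 92.1% and 90.2% in WT. All S34F libraries of STRAP were lower, and the difference missed the threshold (log2 odds ratio -1.18 ± 0.36, SE; edgeR adjusted p = 0.0857). In MACROH2A1, a histone variant, the 100-base exon averaged 96.9% in S34F and 93.7% in WT without overlap (edgeR adjusted p = 0.512).

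The 8 exons with the most reads lie in RPS14, RPL35, ANXA2 and ACTB, and the ANXA2 exon of 100 bases was the only one called. The RPS14 exon of 151 bases averaged 99.9 ± 0.091% in S34F and 99.9 ± 0.0058% in WT, and the RPL35 exon of 80 bases averaged 0.596 ± 0.26% in S34F and 0.754 ± 0.23% in WT (SD, n = 3 each). Of the 8 deepest exons with one coding and one decay-labelled form, the RPS9 exon was called and those in RPS3, NDUFA12, RPL27, LDHA, ATP5PO, SKP1 and NDUFB2 were not. The inclusion difference of these 7 exons lay between -0.26 and 0.33 percentage points.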

How the data were processed

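The deposited table holds the authors' raw counts of long reads per isoform in 6 libraries, without normalization, and the deposited isoform models give exon positions in hg19, per the submitters' processing notes. The file name of the models names FLAIR; the aligner, versions and filters were not given in the labels or headers. Genotypes, replicate numbers, isolates and B1/B2 were taken from the labels, which do not say what B1 and B2 are. No sample column was left out. The exons, gene lists and tests were chosen with earlier results of these data known.

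Reads with the exon and reads skipping it were tested with edgeR 4.0.16 in its quasi-likelihood form (R 4.3.3), with a term per library, for the form, for the form by B1/B2 and for the form by genotype, over all 7541 cassette exons, leaving 3 residual degrees of freedom per exon. Log2 odds ratios compare S34F with WT. Their SEs, and those of gene log2 fold changes, were worked back from the edgeR test. Each is the absolute estimate divided by the square root of its F statistic. The model was first tested on simulated data. Changes in inclusion were put there only into deeper exons away from full or no inclusion. Differences between isolates or between B1 and B2 were not simulated. It therefore says nothing of rare or nearly constitutive exons, or of libraries that share an isolate. Gene counts were tested by edgeR with TMM scaling, filterByExpr (10 reads, 15 in total) and B1/B2. Named exons were the 10 largest differences in each direction among the called exons, filled to 8 by smallest p, the 8 deepest exons, the 8 deepest with one coding and one decay-labelled form, and all in 2 gene lists; RPL34 filled the higher ones and was not called (99.9% in S34F and 99.5% in WT, edgeR adjusted p = 0.0757). Others were named after their values were seen.

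Exons were matched to GENCODE 29 (GRCh38) by gene, exon length and flanking intron lengths, which placed 2935 of 3517. No genome of the files' build was used. Libraries were not treated as paired by replicate number in the reported fit. The correlations of same-numbered deviations were -0.02, -0.01 and 0.14. Those of differently numbered ones ranged from -0.07 to 0.09. The highest, 0.14, was between the B2 libraries. Such small correlations cannot exclude a pairing, and counts with a replicate block are given below. Intervals are Wilson intervals at 95% and floors are 3 counts of the total. Alternatives with limma 3.58.1 (offset 0.5), DESeq2 1.42.0, other read minimums, flank pairs, equal depth and left-out libraries are given below.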

Additional observations from a re-analysis of the deposited data

How the results depend on the processing

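All 35 called exons kept their direction under every alternative run. For the 34 without overlap between genotypes, the direction in B1 alone or with a library left out was fixed in advance. The exons called lower in S34F, 28 by the reported test, numbered 45 with all flank pairs summed, 45 with limma on weighted log2 odds (added after seeing the data), 15 with the libraries of isolate 2 summed, 14 without the B1/B2 term, 5 in B1 alone, 3 at equal depth, 1 with DESeq2 and 0 with limma on unweighted log2 odds (206 at an unadjusted p under 0.05). With a replicate block they numbered 15. They ranged from 6 to 22 when each library was left out in turn. The exons called higher, 7 by the reported test, numbered 13 with weighted limma, 3 with isolate 2 summed, 2 without the B1/B2 term, 2 in B1 alone, 1 at equal depth, and 0 with DESeq2 (28 at an unadjusted p under 0.05) and with unweighted limma (117 at an unadjusted p under 0.05), and ranged from 2 to 6 with a library left out. With the replicate block 5 were called higher. With 20 reads required, no minimum per library or isoforms of at least 3 reads, both counts stayed within 1.5 times. SAT1 was called by DESeq2, and SAT1, RPS9, AGTRAP and ITPA at equal depth, which leaves fewer reads. The UPP1 exons of 118 and 115 bases, not called in the reported test, took the opposite sign and were called with all flank pairs summed (log2 odds ratios -1.36 and 1.70, against 0.51 and -0.86); the cause was not tested. Genes with frame-shifting exons called at the gene level, 35 as reported, numbered 64 without a filter and 0 when B1/B2 was not a term (100 with an unadjusted p under 0.05), and ranged from 6 to 133 with a library left out. The mean inclusion difference for T before the AG, -1.79 points as reported, was -1.09 with reads pooled, -1.21 with 20 reads required and -5.98 between 10 and 90% inclusion. For C, -0.19 points as reported, it was 0.32 with reads pooled and -1.34 between 10 and 90% inclusion. For A, 1.61 points as reported, it was 3.88 with reads pooled and 4.19 between 10 and 90% inclusion. With a library left out these ranged from -1.95 to -1.60 for T, from -0.31 to -0.08 for C and from 1.44 to 1.88 for A. The shallowest library, with 50 reads for the median exon, limits what could be called.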
